A study of Homo sapiens with 7 samples.

Results

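MYCN binding was examined at 10 gene loci that belong to the negative feedback on the ERK kinase cascade or to its transcriptional output: DUSP4, DUSP5, DUSP6, SPRY2, SPRY4, SPRED1, SPRED2, ETV1, ETV4 and ETV5. A MYCN summit, the position of locally highest signal in a chromatin immunoprecipitation and sequencing (ChIP-seq) peak, was assigned to a locus when it fell in a window of the gene plus about 10 kb on each side, on the human genome build hg19. By this rule 82 summits of 64657 in the list were members, and all 10 loci held at least 2. The windows were 25 to 143 kb long and came to 670 kb in all.

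The cells were Kelly cells, an established human neuroblastoma line with amplified MYCN and an activated ALK receptor kinase. TAE684, an ALK inhibitor, was given at 1 µM for 48 h to cells resistant to it (2 MYCN ChIP samples and 2 input samples), while sensitive cells had the vehicle DMSO for the same 48 h (2 MYCN ChIP samples and 1 input sample). All samples came from this 1 cell line, and the labels do not say how the resistant cells were derived or whether they are 1 clone. Each state has 1 peak list for both of its ChIP samples, which leaves the values without a replicate error, and the lists of the 2 states were identical in all 64657 rows, with 64657 of the names in the list of the resistant cells carrying the name of the sensitive list. The study set out to compare MYCN occupancy between the states, and no such comparison could be made at these loci: all values refer to the list of the sensitive cells. A peak list holds no expression values, so neither the cell type nor the activity of these genes could be checked.

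Signals from receptor tyrosine kinases such as ALK pass through RAS, RAF and MEK to ERK, a mitogen-activated protein (MAP) kinase. Active ERK raises the transcription of its own inhibitors: DUSP phosphatases remove the activating phosphates from MAP kinases, and Sprouty and SPRED proteins act upstream, between the receptor and RAF. ETV1, ETV4 and ETV5 form the PEA3 group of ETS transcription factors, which carry part of the transcriptional response to the pathway. MYCN binds DNA as a dimer with MAX, with a preference for E-boxes, of which CACGTG is the best known form.

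Promoter sequence was available for 6 of the 10 genes (SPRED1, SPRED2, SPRY2, SPRY4, DUSP6 and ETV1), with 14 annotated starts among them in the RefSeq promoter table on GRCh38.p14; DUSP4, DUSP5, ETV4 and ETV5 are named only. The 250 bases before each start were searched for CACGTG and for the general E-box CANNTG, each of which reads the same on both strands; the first is a special case of the second. The form CACGTG was found before 1 of the 14 starts, an ETV1 start, and in 6.34% of all 35116 promoters of the table. A CANNTG was found before 7 of the 14 starts, against 61.8% of all promoters. Starts of 1 gene can overlap: at ETV1, 13990703-13990952 and 13990707-13990956 hold the same E-boxes. Counted by gene, CACGTG was found at 1 of the 6, against 7.73% of all 27305 genes, and CANNTG at 3 of the 6, against 66.7%. These matches are letters in a window of another build and were not placed relative to the summits. The outermost annotated starts of ETV1, SPRED2, SPRY2 and SPRED1 follow, ETV1 for its CACGTG and the other 3 for holding the near-start summits of highest fold enrichment among the 6 genes. Each sequence runs 5′ to 3′ up to the base before the start, and capitals mark the E-boxes.

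ETV1 promoter, GRCh38.p14 chr7:13991426-13991675, minus strand: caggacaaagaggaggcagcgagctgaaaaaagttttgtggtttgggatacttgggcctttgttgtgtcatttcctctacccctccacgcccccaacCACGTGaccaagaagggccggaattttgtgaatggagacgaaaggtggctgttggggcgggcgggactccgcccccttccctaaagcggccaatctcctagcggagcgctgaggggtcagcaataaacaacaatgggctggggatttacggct
SPRED2 promoter, GRCh38.p14 chr2:65432600-65432849, minus strand: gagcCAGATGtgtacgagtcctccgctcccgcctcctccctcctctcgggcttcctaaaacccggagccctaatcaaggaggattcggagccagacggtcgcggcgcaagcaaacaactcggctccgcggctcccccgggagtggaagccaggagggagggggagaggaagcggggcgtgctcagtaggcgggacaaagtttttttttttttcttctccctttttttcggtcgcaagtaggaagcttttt
SPRY2 promoter, GRCh38.p14 chr13:80341127-80341376, minus strand: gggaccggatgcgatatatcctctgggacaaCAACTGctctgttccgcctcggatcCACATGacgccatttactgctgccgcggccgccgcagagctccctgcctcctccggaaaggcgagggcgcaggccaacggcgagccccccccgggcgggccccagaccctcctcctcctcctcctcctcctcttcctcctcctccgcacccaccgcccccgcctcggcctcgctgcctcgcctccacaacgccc
SPRED1 promoter, GRCh38.p14 chr15:38252586-38252835, plus strand: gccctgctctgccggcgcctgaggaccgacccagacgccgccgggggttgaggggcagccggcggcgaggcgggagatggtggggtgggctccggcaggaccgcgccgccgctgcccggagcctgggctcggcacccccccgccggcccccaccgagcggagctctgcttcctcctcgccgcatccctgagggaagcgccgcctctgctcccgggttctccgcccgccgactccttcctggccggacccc

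In the ETV1 promoter the CACGTG begins 153 bases before the start. The SPRED2 promoter holds a CAGATG, with its first base 246 bases before the start, and the SPRY2 promoter holds a CAACTG and a CACATG, at 219 and 194 bases. The SPRED1 promoter has no E-box in these 250 bases and a GC content of 78.4%, the highest of the 14, whose median of 57.6% lay beside 58% for all promoters of the table. The printed ETV1, SPRED2 and SPRY2 promoters had GC contents of 56%, 58.8% and 70.4%.

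Each summit carries the authors' fold enrichment, the ratio of the ChIP signal to a local background taken from the input, and a −log10 q. The number of ChIP fragments over each summit and the local background in input fragments were recovered from the fold enrichment and the p-value. There were 1.56 ChIP fragments for each input fragment. The lowest background in the list was 1.61 input fragments, shared by 4566 summits. It acts as a floor: the local input at these summits may have been lower, and their fold enrichment is a ratio to the floor. Intervals given in brackets are exact 95% Poisson limits of the ChIP fragments. They cover counting error only and hold the background fixed. Distances are from an approximate gene start, the window edge moved in by 10 kb, and are positive into the gene. The windows exceed the RefSeq gene lengths by 17.6 to 21.4 kb, up to 2.43 kb away from the 20 kb that the margins imply. This compares total lengths only and does not bound the error of an approximate start, which can be off by as much or more. The side of the start is therefore not resolved for summits this close, and a summit can fall on either side of a 2-kb limit. Exons, introns and UTRs were not assigned, since no hg19 annotation was used.

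All 10 of the 10 loci held MYCN summits close to the approximate gene start. Of the 82 summits, 54 lay within 2 kb of the approximate start, with 2 to 9 at every locus. The matching shares, over all summits of the list and over all genes, were not computed for lack of an hg19 annotation. Neither count is therefore read as particular to these loci. A window with at least 1 summit is not rare: among tiles of equal length over chromosomes 1 to 22 and X, 23.8% of 25-kb tiles and 60.5% of 143-kb tiles held one, gene-free sequence included. The density over the 10 windows was 122 summits per Mb, against 21.3 per Mb over these chromosomes, and each of the 10 windows was denser than its own chromosome. The comparison is between windows centred on genes and whole chromosomes, so it does not set these loci apart from other genes.

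Enrichment at these summits was moderate. The median fold enrichment was 5.02 with quartiles of 3.58 and 6.88, beside 5.35, 3.90 and 7.54 over the whole list. At 5 of the 82 summits the value was 10 or more (6.10%, exact 95% binomial interval 2.01 to 13.7), beside 12.0% of all summits, and the interval includes the share of the list. These 5 summits lay at SPRED2 (1), ETV1 (1), SPRED1 (2) and SPRY2 (1). The median number of ChIP fragments was 55.5, beside 63 over the list, and the median background was 7 input fragments, beside 7.56. The members shared 49 intervals, 29 of them with a single summit (59.2%, exact 95% binomial interval 44.2 to 73.0), beside 76.4% of all intervals in the list. At 9 of the 10 loci, all but ETV4, an interval held more than 1. Both binomial intervals treat members as independent, which neighbours at 1 locus may not be. They may thus be too narrow and are not tests against the list.

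**Figure D1:**
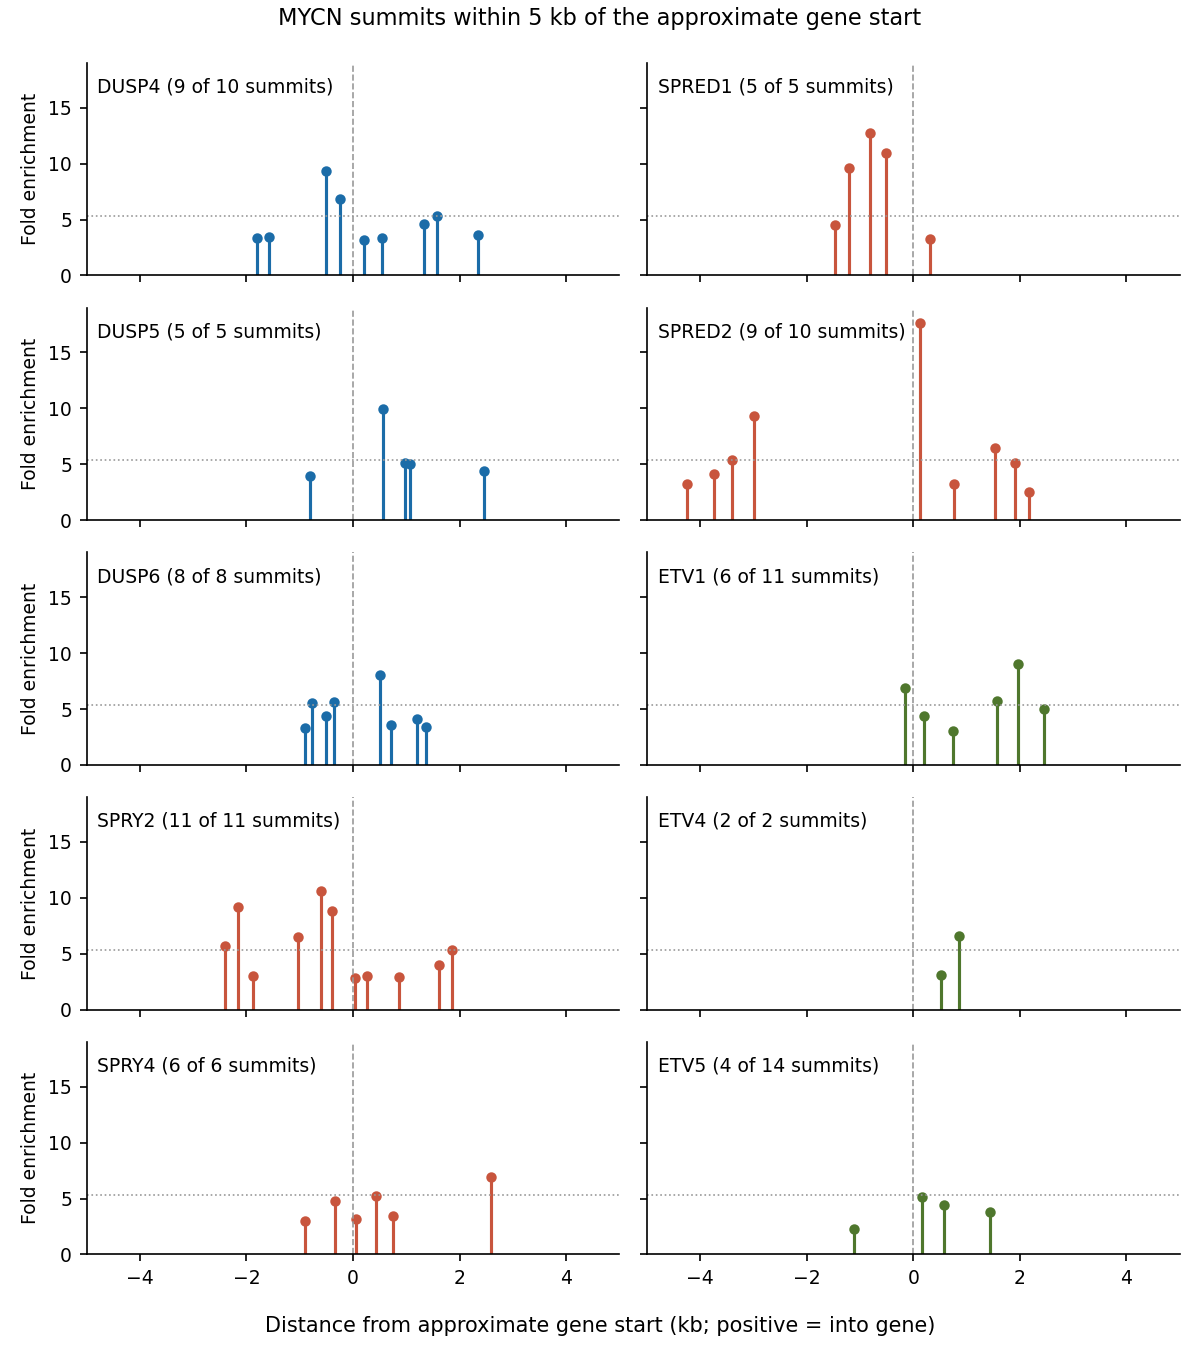
Fold enrichment (y axis) of each MYCN summit against its distance in kb from the approximate gene start (x axis, positive into the gene), for summits within 5 kb; 1 panel per locus, with the dashed line at the start and the dotted line at the list's median of 5.35. Every locus has summits within 2 kb of the start, from 2 at ETV4 to 9 at SPRY2.

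DUSP4, DUSP5 and DUSP6 encode MAP kinase phosphatases. DUSP6 is a cytoplasmic phosphatase with a strong preference for ERK, while DUSP4 and DUSP5 are nuclear. Their windows held 23 MYCN summits with a median fold enrichment of 4.40, 7 of them above the list's median. A fold enrichment of at least 10 was reached at 0 of 23, beside 12.0% of the whole list. The exact binomial interval, at the confidence level used above, was 0 to 14.8% and includes the share of the list. It treats the 23 summits as independent, although they shared 11 intervals.

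The strongest summit of the 3 phosphatase genes was at DUSP5. It lay on chromosome 10 in an interval from 112257121 to 112258337, with the summit at 112257558, 0.557 kb from the approximate start. Its fold enrichment was 9.90 (8.45 to 11.5) from 163 ChIP fragments over a background of 9.66, with a −log10 q of 65.1. The same interval held summits of 5.11 and 5.05, and single-summit intervals before and after it reached 3.96 and 4.43. All 5 DUSP5 summits fell within 3453 bp, and no other summit was listed in the 35-kb window.

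DUSP6 had 8 summits in 3 intervals on chromosome 12 from 89745479 to 89748194, a span of 2716 bp that covers both sides of the approximate start. Fold enrichment ran from 3.30 to 8.07 (6.47 to 9.94), with the highest value at 89746493 and 85 ChIP fragments there. Its ChIP fragments ran from 57 to 94 and its background from 5.88 input fragments, at the summit of highest fold enrichment, to 17, at the lowest. Of 26-kb tiles, 0.512% held 8 or more summits.

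DUSP4 had 10 summits on chromosome 8, of which 9 lay in a cluster of 4336 bp around the approximate start and 1 lay 10.1 kb into the gene. The top summit had a fold enrichment of 9.34 (7.25 to 11.9) from 64 ChIP fragments and a background of 3.50. A neighbour in the same interval reached 6.86 with more fragments, 84, over a background of 7. The other 8 DUSP4 summits had values between 3.16 and 5.35, and the summit inside the gene had 4.40 from 19 fragments. As 38-kb tiles go, 0.512% held 10 or more summits.

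Sprouty and SPRED proteins share a C-terminal cysteine-rich Sprouty domain, and SPRED1 recruits neurofibromin, which switches RAS off. The 4 loci held 32 summits with a median fold enrichment of 4.94, and 4 of them (12.5%) reached at least 10, beside 12.0% of the whole list. Their 32 summits held 28 to 221 ChIP fragments.

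SPRED2 had the highest fold enrichment of the 10 loci. This summit, at 65659880 on chromosome 2, was the only one in an interval from 65659445 to 65660202 and lay 0.121 kb from the approximate start. Its fold enrichment was 17.6 (15.3 to 20.2), from 203 ChIP fragments over a background of 6.44, with a −log10 q of 113.9, and 1.35% of all summits had a value as high. Less enriched summits flanked it on both sides. Into the gene, an interval from 65657753 to 65659022 held 3 summits of 2.49, 5.09 and 6.44, and a small interval between it and the top summit held 1 of 3.21. Before the start, a separate cluster of 4 summits up to 4.26 kb away reached 9.30 (8.03 to 10.7) with 187 ChIP fragments. The rest of the 143-kb window held a single summit, 83.0 kb into the gene, with a fold enrichment of 4.74 from 28 fragments.

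SPRED1 had 5 summits, all within 1963 bp at the approximate start. An interval on chromosome 15 from 38543452 to 38545097 held 4 of them, with fold enrichments of 4.55, 9.65, 12.7 (11.0 to 14.6) and 11.0 (9.59 to 12.5) in order along the chromosome. The summit of 11.0 had the most ChIP fragments of any member, 221, over a background of 12, while the summit of 12.7 had 197 over 9. The remaining summit, in the next interval, reached 3.27 from 29 fragments. In the remainder of the 125-kb window no summit was listed, and 21.1% of tiles of that length held 5 or more.

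SPRY2 had 11 summits in 6 intervals, all on chromosome 13 from 80912989 to 80917530, a span of 4542 bp. This was the highest density of the 10 windows, 440.0 summits per Mb, in the shortest of them, at 25 kb. ETV1 also held 11 summits, in 121 kb (90.9 per Mb). Of 25-kb tiles, gene-free sequence included, 0.120% held 11 or more. The highest reached 10.6 (8.91 to 12.6) at 80915595 with 131 ChIP fragments, and its neighbour in the same interval reached 8.82 with 136. A second maximum of 9.16 (7.66 to 10.9) with 127 fragments lay 2.16 kb before the approximate start. Within 2 kb of the start, on either side, 4 further summits had values of 2.85 to 3.04 from 31 to 45 fragments, over backgrounds of 6.16 to 8.82.

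SPRY4 was the least enriched of the 4 genes. Its 6 summits lay on chromosome 5 from 141702314 to 141706123, and its highest fold enrichment, 6.93 (5.28 to 8.94), was found 2.59 kb into the gene over a background of 4.33. The summit with the most ChIP fragments, 86, lay 0.426 kb from the approximate start and had a fold enrichment of 5.27 over a background of 9.66. The remaining values were 3.02 to 4.79. One strong summit lay just outside this window: at 141670344, 9.66 kb beyond its edge, the fold enrichment was 10.3. At the other window edges the nearest outside summit was 12.9 to 457 kb away.

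Of the 28 member summits more than 2 kb from an approximate start, 10 were at ETV5, 6 at ETV1 and 6 at SPRED2. Beyond 5 kb there were 17, of which 10 were at ETV5, 5 at ETV1, 1 at SPRED2 and 1 at DUSP4. The windows of ETV5, ETV1 and SPRED2 are long, at 83, 121 and 143 kb, as is the 125-kb window of SPRED1, which held no summit beyond 2 kb. The 27 ETV summits had a median fold enrichment of 5.46 and a median background of 4 input fragments. The summits of the phosphatase loci had a median background of 7, and those of the Sprouty and SPRED loci 8. The low ETV median was not shared by all ETV summits. Those farther than 2 kb had medians of 1.87 at ETV1 and 3.32 at ETV5. Within 2 kb the medians were 7.56 at ETV1, 12.7 at ETV5 and 10.8 at ETV4.

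At ETV1 the strongest summit was deep in the window. It lay on chromosome 7 in an interval from 13985301 to 13985703, with its summit at 13985456, 45.5 kb from the approximate start. Its fold enrichment was 15.9 (12.3 to 20.2) and its −log10 q 38.6, and 2.12% of all summits had a value as high. It rested on 63 ChIP fragments, over the lowest background of the list, the shared floor of 1.61. A weaker summit of 8.50 (5.97 to 11.8) lay on the start side of it, at 41.8 kb, on the same background. Further summits at 70.8 and 71.2 kb reached 7.09 and 4.20, and one at 10.1 kb reached 5.80.

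Around the approximate start of ETV1, 6 summits in 4 intervals spanned 2816 bp, from 14028462 to 14031277. Their fold enrichments were 3.03 to 9.04 (6.86 to 11.7), with the highest at 1.96 kb. The most ChIP fragments of the locus, 95, were found 0.161 kb before the approximate start, where the fold enrichment was 6.88 over a background of 8. ETV1 thus had its highest fold enrichment at one place and its most fragments at another.

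ETV5 had 14 summits, the most of the 10 loci, in 4 clusters. The 4 summits within 2 kb of the approximate start had fold enrichments of 2.27 to 5.13, with 55 to 106 ChIP fragments over backgrounds of 12 to 15. A cluster on chromosome 3 from 185815386 to 185816295, about 11 kb into the gene, held 3 summits of 5.61, 7.38 and 8.56 (6.67 to 10.8). A larger one from 185770328 to 185773298, 53.8 to 56.6 kb into the gene, held 6 summits of 4.45 to 7.63 (5.65 to 10.1). A lone summit at 20.9 kb reached 5.25. Of these 10 summits away from the start, 7 had a higher fold enrichment than any near it, and 0 had more ChIP fragments. Their backgrounds ran from 1.96 to 8 input fragments.

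ETV4 had the fewest summits, 2, at 41623141 and 41623484 on chromosome 17. The first had a fold enrichment of 6.58 (5.45 to 7.88) from 115 ChIP fragments, and the second 3.08 from 57, with backgrounds of 10.4 and 11.2. Chromosome 17 had 47.6 summits per Mb and a median background of 10.4. Over chromosomes 1 to 22 and X together, 18.8% of 39-kb tiles held 2 or more summits.

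**Figure D2:**
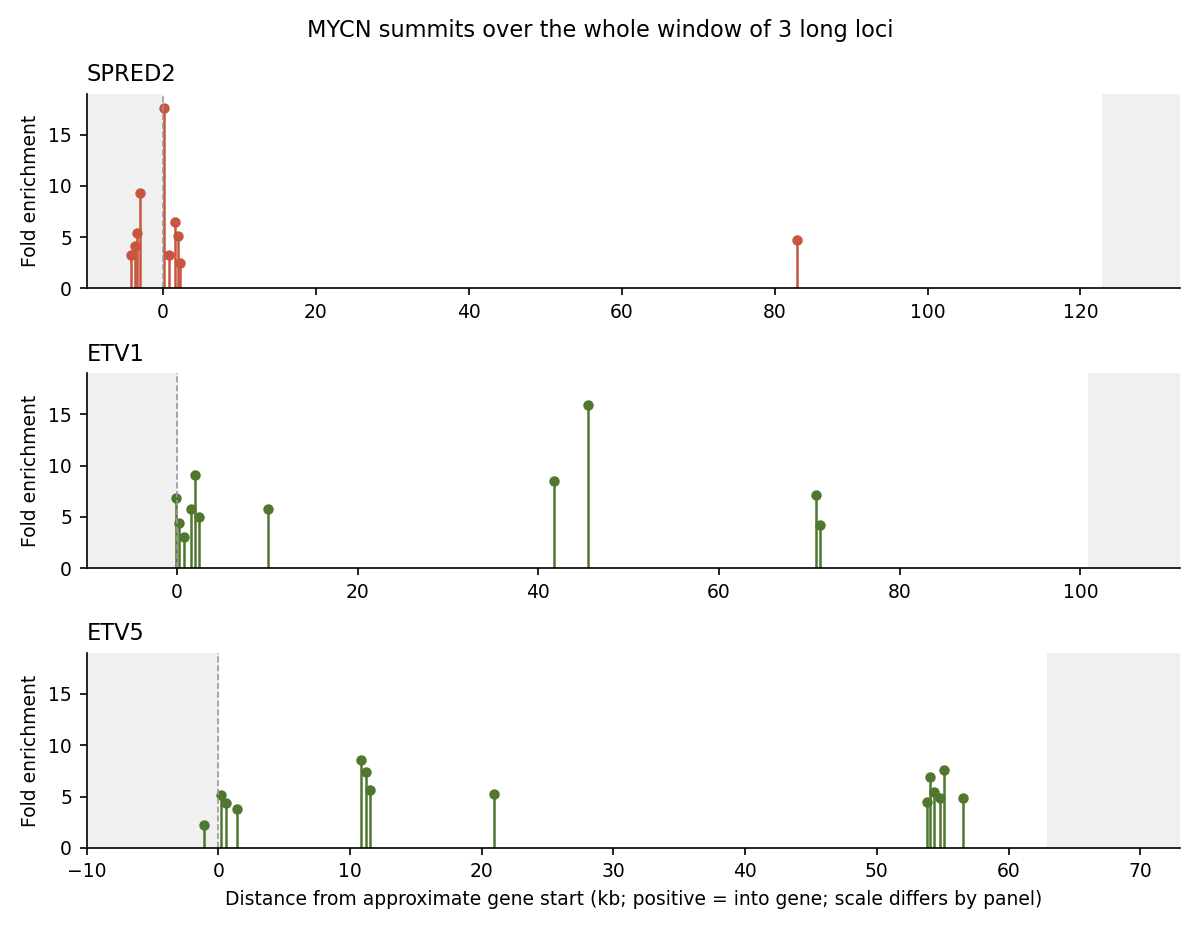
Fold enrichment (y axis) of every MYCN summit in the windows of SPRED2, ETV1 and ETV5 against the distance in kb from the approximate gene start (x axis, a different scale in each panel); grey bands mark the 10-kb margins of the window. SPRED2 has its highest value, 17.6, at the start, while the highest at ETV1, 15.9, lies 45.5 kb away and that at ETV5, 8.56, at 10.9 kb.

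Ordered by their highest summit, the loci ran from SPRED2 (17.6) and ETV1 (15.9) through SPRED1 (12.7), SPRY2 (10.6), DUSP5 (9.90), DUSP4 (9.34), ETV5 (8.56) and DUSP6 (8.07) to SPRY4 (6.93) and ETV4 (6.58). The counting intervals of all 9 pairs of neighbours in this order overlapped, so the order between neighbours is not resolved. The interval of SPRED2, 15.3 to 20.2, lay above those of SPRED1 and of the 7 loci after it. The highest of several summits grows with their number, which ran from 2 to 14.

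**Figure D3:**
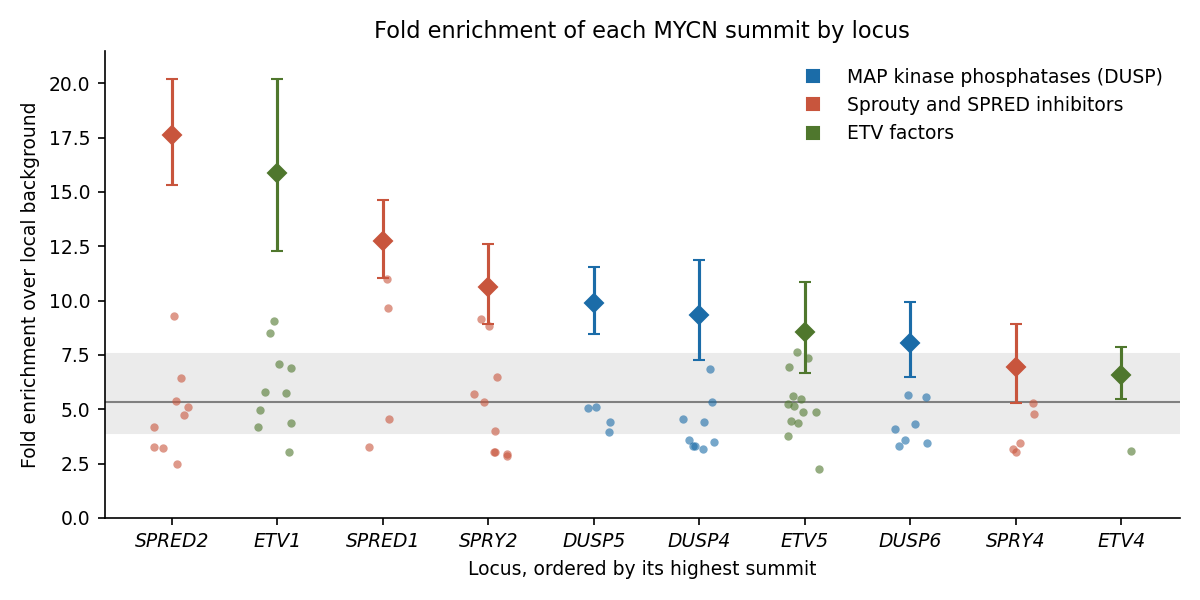
Fold enrichment over the local background (y axis) of all 82 MYCN summits by locus (x axis); diamonds mark the highest summit with its exact 95% Poisson interval, dots the others, and the grey band and line the quartiles and median of all 64657 summits (3.90, 5.35 and 7.54). The highest summits run from 6.58 at ETV4 to 17.6 at SPRED2.

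The order changed when the loci were ranked by ChIP fragments. SPRED1 came first with 221 (193 to 252), followed by SPRED2 with 203 (176 to 233), DUSP5 with 163 (139 to 190), SPRY2 with 136 (114 to 161) and ETV4 with 115 (94.9 to 138). ETV5 had 106, ETV1 95, DUSP6 94, SPRY4 86 and DUSP4 84. Here too the intervals of all 9 neighbouring pairs overlapped. The largest count of any summit in the list was 280, and compression of high counts toward such a limit was not tested. ETV1 moved from rank 2 to rank 7, and ETV4 from rank 10 to rank 5. The same summit led in both measures at 3 loci, SPRED2, DUSP5 and ETV4.

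By fragments, the leading summit of all 10 loci lay near the approximate gene start. It was within 0.860 kb of the approximate start at 10 of the 10, where the background was 6.44 to 12.5 input fragments. By fold enrichment, the leading summit lay within 2 kb at 7 of the 10, the exceptions being SPRY4, ETV1 and ETV5. The matching shares over all genes were not computed, so neither count is read as particular to these loci. The 54 summits within 2 kb had a median of 62.5 ChIP fragments over a median background of 8, and a median fold enrichment of 4.56. The 28 farther ones had 37, 3.82 and 5.41. These pooled medians mix loci: 16 of the 28 were at ETV1 and ETV5, and only 7 loci had any. Within these 7, the median background was lower farther out at all but SPRED2 (11.5, beside 7.98 near the start). The median fold enrichment was higher farther out at SPRY2, SPRY4, ETV1 and ETV5, and lower at DUSP4, DUSP5 and SPRED2. The median number of fragments was higher farther out at SPRY2 and SPRY4 (56, beside 55 near the start) and lower at the rest. Several of these medians rest on very few summits: SPRY4 and DUSP5 had 1 farther summit each, SPRY2 and DUSP4 2 each. Those of SPRY2, SPRY4 and DUSP5 lay at 2.16 to 2.59 kb. With an approximate start, their place beyond the 2-kb limit is not resolved, nor is that of the DUSP4 summit at 2.35 kb. The fold enrichment divides by the background, and a low background also lets a summit with few fragments pass the threshold of the list, so these medians are not independent of each other. All 3 member summits at the lowest background of the list belonged to ETV1 and lay more than 2 kb from its start.

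**Figure D4:**
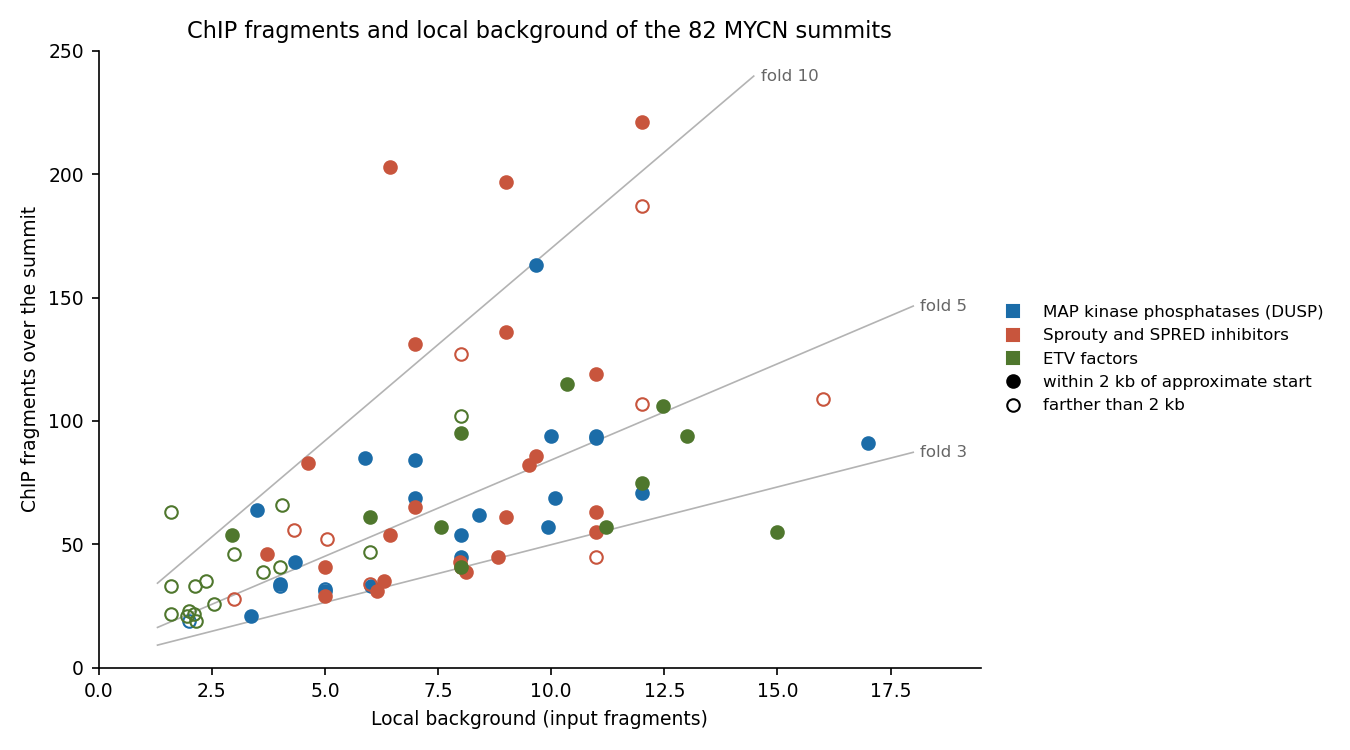
ChIP fragments over each of the 82 summits (y axis) against the local background in input fragments (x axis); filled points lie within 2 kb of the approximate gene start, open points farther away, and grey lines join points of equal fold enrichment. The ETV summits far from a start sit at backgrounds of 1.61 to 8 with at most 102 fragments, while the summits with the most fragments, 197 to 221, belong to SPRED1 and SPRED2 near their starts.

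Other annotated genes lie close to some of these loci. In the RefSeq gene table, on GRCh38.p14, another gene overlaps or lies within 10 kb of DUSP4, DUSP5 (DUSP5-DT), DUSP6 (POC1B-DUSP6), SPRY4 (SPRY4-AS1 and SPRY4-IT1), SPRED2, ETV4 (DHX8) and ETV5 (ETV5-AS1 and 1 more), and none does so for SPRY2, SPRED1 and ETV1. A summit in a window is therefore not tied to the named gene alone. Other genes of the pathway, such as DUSP1, SPRY1, SPRED3 and CIC, were not analysed here, because their windows would need an hg19 annotation.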

How the data were processed

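MYCN ChIP-seq peaks of Kelly cells were taken from the 2 lists deposited by the authors, 1 per state. Tools listed in the submitters' processing notes are MACS2 2.1.1, a peak caller, STAR 2.5.1b, an aligner, SAMtools 1.3.1, deepTools 2.2.4 and Picard, with the build hg19. No source used here says how ChIP samples were merged or duplicate reads handled. Each deposited row gives a fold enrichment (a ratio), a −log10 p-value, a −log10 q-value and an integer score. The score was not used. The authors' values serve only to describe and rank summits within 1 list. The lists were compared byte by byte and found identical, so no test between states was run.

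The members, windows and thresholds were chosen with earlier results of these data known. All 10 genes are named, with the highest summit and those near the start of each. The rule's window positions were compared with column 2 plus column 10 of each row, and printed positions count from 1. Strands came from the RefSeq promoter table for 6 genes and from textbook knowledge for DUSP4, DUSP5, ETV4 and ETV5. Intervals under 2 kb apart were joined into clusters. ChIP fragments and background were solved from the fold (scaled pileup plus 1 over background plus 1) and the Poisson tail p-value; a scale of 0.641 gave whole fragments throughout (64657 summits, tolerance 0.0005 in −log10 p), and 29 summits, 0 of them members, had 2 solutions. The procedure was tested on simulated data first. The total number of reads per sample is unknown. PCR copies cannot be told from separate molecules, and all intervals cover counting error only. No summit of the list had more than 280 ChIP fragments, and the highest member count, 221, was 78.9% of that. Whether 280 is a ceiling from the handling of duplicate reads was not tested. Under such a ceiling the intervals of high counts would not describe plain counting. Tiles run to the last peak of each chromosome and include unmappable sequence. Python 3.11.15, numpy 2.4.6, pandas 2.3.3, scipy 1.17.1 and matplotlib 3.10.9 were used.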

Additional observations from a re-analysis of the deposited data

How the results depend on the processing

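No paired analysis was possible because the ChIP samples of a state share 1 list, which also prevented leaving out a replicate. Of the 82 member summits, 49 had a −log10 q of at least 10 and 41 had a fold enrichment of at least 5, and they lay in 49 separate intervals. The count was 66 at the milder q threshold of 5, 55 with windows narrowed by 10 kb and 83 with windows widened by 10 kb. All 10 loci kept a summit under each of these 6 settings. SPRED1 kept 1 of 5 summits in the narrowed window. The median fold enrichment, 5.02, was 6.44 under the stricter q threshold of 10 and 4.89 to 5.34 under the other settings. The 54 summits within 2 kb of the approximate start became 35 within 1 kb and 65 within 5 kb. The 5 summits with a fold enrichment of at least 10 became 2 in the narrowed windows and 6 in the widened ones, both settings chosen after seeing the data. The other alternatives moved the median ChIP fragments to 46 and 54 and the median background to 6.16 and 6. The list reached down to a −log10 q of 2.01, and its lowest count was 13 ChIP fragments. The count needed rises with the background: at SPRY2, 31 fragments over a background of 6.16 gave a −log10 q of 2.90. Weaker binding between the summits was thus not detectable, with no single fragment count as the limit.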
